A study of Mus musculus with 6 samples.

Results

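The genes described here are 39 that copy DNA in S phase: the subunits that mark and open replication origins, the helicase, the polymerases and their clamp, the enzymes that supply nucleotides, factors that rebuild chromatin behind the fork, and the regulators that start S phase. They were taken by name from the array's gene names, control spots left out, and the brightest probe stood for each gene. All 39 were found among 36870 gene names. Of these, 38 were among the 20475 genes tested, which were those with signal well above background for TMX or for OIL on both arrays of 2 or more couples. Ccne2, one of the 2 E-type cyclins, was not well above background in any of its 6 TMX and 6 OIL readings.

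RNA came from lung tumours of C57BL/6J mice with floxed Ror1 alleles (Ror1f/f), a CAG-CreER transgene and a human EGFR transgene that lacks residues 746 to 750 (SPC-hEGFRdel746-750). Mice of the TMX group received tamoxifen from 16 to 20 weeks of age, and mice of the OIL group received corn oil over the same weeks. Tumours of both groups were taken at 20 weeks, after 4 weeks of treatment. All 3 alleles were shared by both groups, so the OIL mice also carried CreER, and the effect of the tamoxifen itself and of the recombination it induces cannot be told apart in this design. The CAG promoter is active in most tissues, so recombination is not restricted to tumour cells by the driver. The SPC promoter drives the mutant receptor in alveolar type 2 cells. The 3 TMX and 3 OIL samples formed 3 couples. TMX_1 was hybridised with OIL_1 on 2 arrays with the dyes exchanged, and likewise couples 2 and 3, which gave 6 arrays on 1 slide. The labels do not say whether samples of a group are separate animals, so p-values measure only the spread between these samples.

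A floxed gene that is lost should fall in the TMX samples, and Ror1 was examined for that reason. Its brightest probe (chr4:100115077-100115136, mm9) had log2 intensities of 9.35, 9.30 and 9.17 in TMX_1, TMX_2 and TMX_3, against 8.76, 8.86 and 8.99 in OIL_1, OIL_2 and OIL_3. It was thus higher in every TMX sample, with a mean log2 ratio of 0.40 ± 0.20 (SD over 3 couples, limma adjusted p = 0.688). The labels do not name the floxed exon, so this probe may lie outside the deleted part and then cannot check the labels. TMX and OIL below mean samples labelled so. Sftpc, a surfactant protein that defines alveolar type 2 cells, was well above background in all 6 TMX and all 6 OIL readings. Per array and channel, the share of probes well above background was 51.8% to 58.8%.

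Replication starts when the origin recognition complex, Cdc6 and Cdt1 load the Mcm2-7 helicase on DNA in G1. Cdc45 and the GINS complex then join the helicase and activate it, and primase, the polymerases, the clamp Pcna and its loader copy both strands. E2F factors, held back by the retinoblastoma protein until G1 cyclins act, drive the transcription of many of these genes, so their RNA is commonly read as a sign of how many cells in a tissue are cycling. In bulk tissue, fewer cycling cells and less RNA per cycling cell cannot be told apart.

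No replication gene passed the test of TMX against OIL over couples. The limma test over 3 couples, with Benjamini-Hochberg adjustment over all genes tested, called 0 of 38 members and 0% of all 20475 genes, and the lowest adjusted p of a member was 0.688. At an unadjusted limma p under 0.05, 2 members were higher in TMX (Pola1 and Chaf1b), against a background of 3% of all genes, and 1 was lower (Orc6), against 4.01%. With the 6 arrays fitted singly and the couple as a random block (replicate block), 0 of 38 members passed and 0.274% of all genes did.

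The mean log2 ratio of TMX over OIL was nonetheless above 0 in 32 of 38 members, against 48.8% of all genes tested, and its median over the 38 was 0.19. That tilt came mostly from couple 3. Ratios were above 0 in 16, 26 and 37 of the 39 genes in couples 1, 2 and 3. Over all 20475 genes tested, these counts were 9934, 10197 and 10003. The median over the 39 genes was -0.03 in couple 1, 0.06 in couple 2 and 0.50 in couple 3, where the median over all genes tested was -0.01 in couple 1, -0.001 in couple 2 and -0.01 in couple 3. Without couple 3, the mean ratio was above 0 in 20 of 38 members, or 52.6%, against 48.4% of all genes, and the median over members was 0.01. Ratios were above 0 in all 3 couples for 11 members, against 13.8% of all genes, and below 0 in all 3 for Orc6 alone, against 16.4%. With couple 1 left out, 25 of 38 members were above 0 in both remaining couples, against 24.8% of all genes. In couples 1 and 2 together, 11 members (28.9%) were above 0 in both, close to the 27.5% of all genes.

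**Figure D1:**
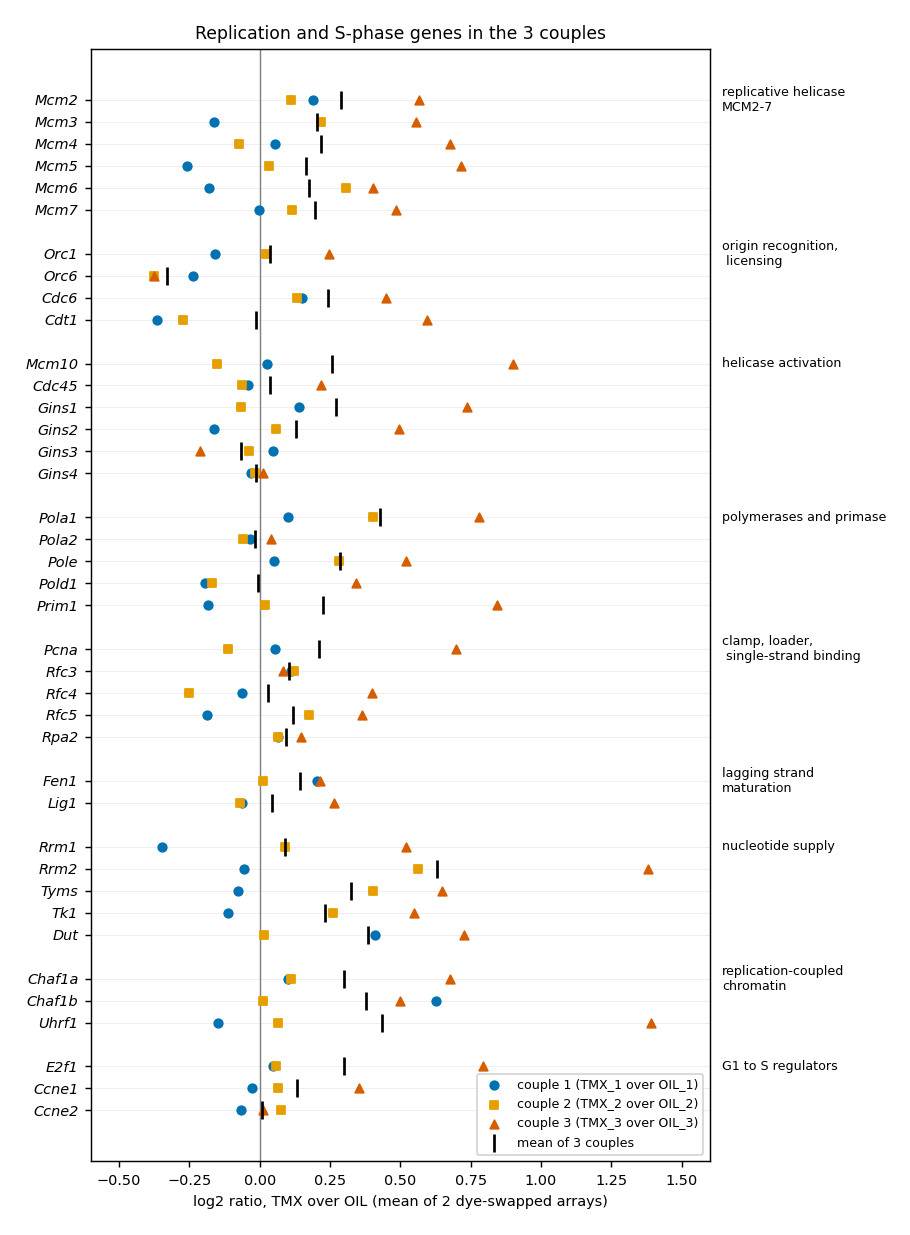
Log2 ratio of TMX over OIL (horizontal axis) for each of the 39 genes (rows, grouped by role) in couple 1 (circles), couple 2 (squares) and couple 3 (triangles), each the mean of 2 dye-swapped arrays, with the mean of 3 couples as a bar. Couple 3 lies farthest right for most genes, up to 1.39 for Uhrf1, while couples 1 and 2 scatter on both sides of 0.

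The difference within couple 3 was large beside the error of the arrays. A limma fit of the 6 arrays, with a term for each couple and 1 for dye orientation, takes its error from dye-swapped arrays of the same RNA, so it compares the RNA samples of these couples and not the treatments. At an adjusted p under 0.05 in that fit, 33 of 38 members were higher in TMX_3 than in OIL_3, against a background of 23.2% of all genes, and 2 (Orc6 and Gins3) were lower, against 25.1%. In couple 1, 4 members were higher in TMX_1, against 26.9%, and 11 were lower, against 30%. In couple 2, 9 members were higher in TMX_2, against 24.9%, and 6 were lower, against 23.7%. These counts moved with the setting: without the dye term, 2 were higher and 4 lower in couple 1, and 4 higher and 2 lower in couple 2, while in couple 3 28 were higher and 1 was lower. The shares of all genes without the dye term are not reported here, so those counts have no background beside them. The ratio of couple 3 exceeded that of couple 1 in 29 members, against 25.8% of all genes, and was below it in Gins3 alone, against 25.2%. The 3 couples differed by the F test in 31 of 38 members, against 66.3% of all genes, so a difference between couples as such was common on these arrays and its direction was what the replication genes shared. The ratios of the 2 dye orientations correlated across the 38 members with r = 0.623 in couple 1, 0.757 in couple 2 and 0.924 in couple 3, where genes are not independent replicates.

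Levels in single samples placed most of the difference in OIL_3 and, for some genes, part of it in TMX_3. Levels are log2 intensities per channel after loess within arrays and Aquantile between arrays, and are compared between samples for a given probe only. OIL_3 was the lowest of the 6 samples for 31 of 39 genes, against 18.2% of all genes tested, and was the highest for 0. TMX_3 stood above the mean of TMX_1 and TMX_2 in 21 genes and below it in 18, with a median difference of 0.02 on the log2 scale. It was the highest sample for 15 of 39 genes, against 13.4% of all genes tested, and stood above that mean by 0.49 in Uhrf1, 0.42 in Rfc4 and 0.41 in Mcm10. OIL_3, hybridised on the same arrays as TMX_3, stood below the mean of OIL_1 and OIL_2 in 35 of 39 genes, with a median difference of -0.42 and a range of -1.25 to 0.08. The 8 genes in which another sample was lowest were Orc6, Gins3, Gins4, Pola2, Rfc4, Fen1, Chaf1b and Ccne2. The range over the 3 samples of a group had a median of 0.28 for the TMX samples and 0.50 for the OIL samples over the 38 members, and was wider over OIL in 32 of them. Over all genes tested the medians were 0.25 for TMX and 0.22 for OIL.

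**Figure D2:**
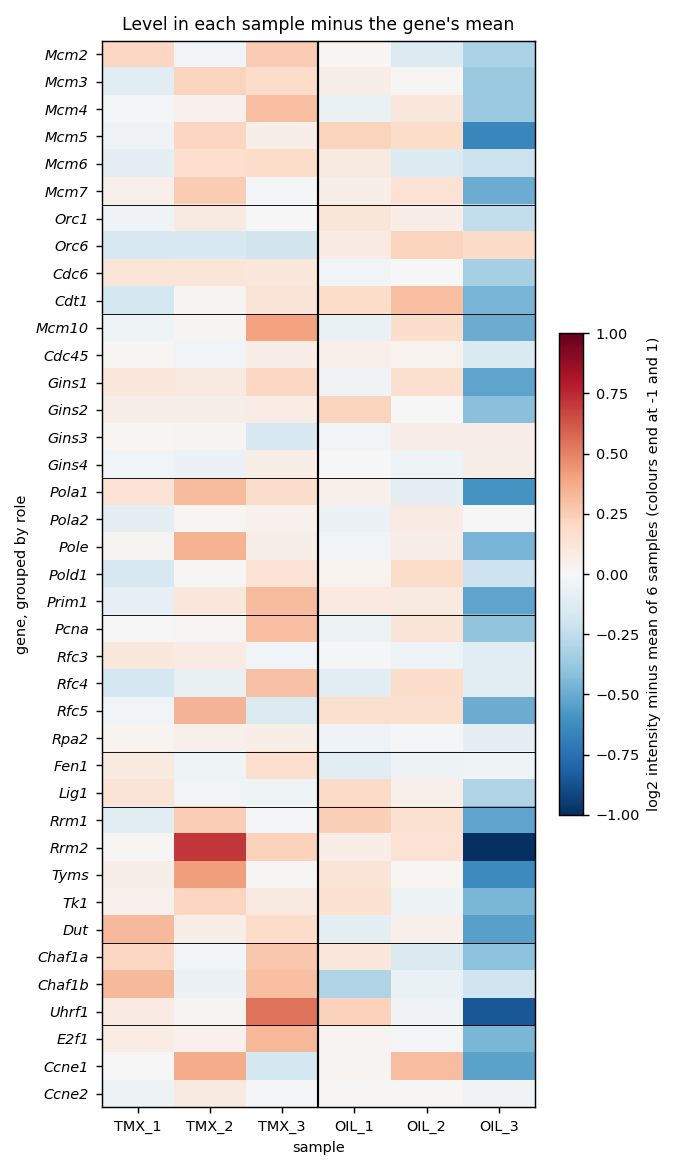
Level of each of the 39 genes (rows, grouped by role) in the 6 samples (columns, TMX left and OIL right) as log2 intensity minus the gene's mean over samples, on a colour scale from -1 (blue) to 1 (red). The OIL_3 column is blue in most rows, with Rrm2, Uhrf1 and Mcm5 darkest, while Orc6 is blue in the 3 TMX columns.

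A complete separation of groups was seen in few genes. All 3 TMX samples lay above all 3 OIL samples in 7 of 38 members (Cdc6, Pola1, Rpa2, Fen1, Dut, Chaf1b and E2f1), against 5.25% of all genes. Orc6 was the only member with all 3 TMX samples below all 3 OIL samples, against 7.24%.

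The 6 subunits of the Mcm2-7 helicase ring, which unwinds the template, shared a direction in couple 3 but not in couple 1. All 6 were higher in TMX_3 than in OIL_3 in the array-error fit, against 23.2% of all genes. Their log2 ratios there lay between 0.40 for Mcm6 and 0.72 for Mcm5. All 6 differed between couples by the F test, against 66.3% of all genes. In couple 1, Mcm2 was higher in TMX_1 (log2 ratio 0.19), while Mcm3 (-0.16), Mcm5 (-0.26) and Mcm6 (-0.18) were lower in TMX_1. In couple 2, 5 of 6 ratios were above 0, against 10197 of 20475 genes tested. Of these, Mcm3 (0.22) and Mcm6 (0.31) were higher in TMX_2 in the array-error fit, against 24.9% of all genes. Mcm2 had both the largest mean ratio and the smallest p of the ring. Mcm2 (probe at chr6:88833619-88833678, mm9) was at 9.67, 9.43 and 9.71 in TMX_1, TMX_2 and TMX_3, against 9.48, 9.32 and 9.15 in OIL_1, OIL_2 and OIL_3, so TMX_2 fell inside the range of the OIL samples. Its mean log2 ratio was 0.29 ± 0.24 (SD, n = 3 couples, limma adjusted p = 0.688). The mean ratios of the others were 0.20 ± 0.36 for Mcm3, 0.22 ± 0.40 for Mcm4, 0.16 ± 0.50 for Mcm5, 0.17 ± 0.31 for Mcm6 and 0.20 ± 0.25 for Mcm7. The 4 probes of Mcm3 gave mean ratios of 0.20, 0.23, 0.20 and 0.20, and each was below 0 in couple 1 and above 0 in couples 2 and 3.

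Among the licensing factors that load this ring, Orc6 went the other way. Orc6, the smallest subunit of the origin recognition complex (probe at chr8:87831769-87831828, mm9), was at 10.35, 10.35 and 10.32 in TMX_1, TMX_2 and TMX_3, against 10.58, 10.73 and 10.69 in OIL_1, OIL_2 and OIL_3. Every TMX sample lay below every OIL sample, and OIL_3 was not set apart. Its log2 ratios in couples 1, 2 and 3 were -0.24, -0.38 and -0.38. They averaged -0.33 ± 0.08 (SD, n = 3 couples), and Orc6 had the smallest p of all members by limma (adjusted p = 0.688). Cdt1, which brings the helicase to origins, had nearly opposite ratios in the couples, at -0.37, -0.27 and 0.59, which averaged -0.01 ± 0.53. Cdc6, the ATPase that works with it, was at 0.15, 0.13 and 0.45, with a mean of 0.24 ± 0.18. Orc1, the largest subunit of the complex and an ATPase, averaged 0.04 ± 0.20. Its probe was dim, at 6.78 to 7.15 in the 6 samples, and averaged 0.14 with the ratio made by the scanner software.

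The helicase activators split. Gins1, a GINS subunit (probe at chr2:150756868-150756927, mm9), was at 8.62, 8.61 and 8.73 in TMX_1, TMX_2 and TMX_3, against 8.48, 8.68 and 7.99 in OIL_1, OIL_2 and OIL_3. Only OIL_3 stood apart, and the mean ratio was 0.27 ± 0.42 (SD, n = 3 couples, limma adjusted p = 0.751). Mcm10, an initiation factor that binds the helicase, had ratios of 0.02, -0.15 and 0.90 and averaged 0.26 ± 0.56. Its second probe gave -0.21, -0.01 and 0.46. Gins2 averaged 0.13 ± 0.34 and Cdc45, the helicase cofactor, 0.04 ± 0.16. The Cdc45 probe was dim, at 6.79 to 7.01 in the 6 samples, and averaged 0.11 with the ratio made by the scanner software. Gins3 and Gins4, partners of Gins1 and Gins2 in the same complex, did not share the low level of OIL_3. Gins3 was at 13.80, 13.81 and 13.63 in TMX_1, TMX_2 and TMX_3, against 13.75, 13.85 and 13.85 in OIL_1, OIL_2 and OIL_3, with a mean ratio of -0.07 ± 0.13. Gins4 had ratios of -0.03, -0.02 and 0.01 and averaged -0.01 ± 0.02.

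Of the polymerases, Pola1 differed most. This catalytic subunit of polymerase alpha, which extends the RNA primer (probe at chrX:90550189-90550248, mm9), was at 8.93, 9.09 and 8.96 in TMX_1, TMX_2 and TMX_3, against 8.83, 8.69 and 8.18 in OIL_1, OIL_2 and OIL_3. The groups did not overlap, and OIL_3 was the lowest. Its log2 ratios of 0.10, 0.40 and 0.78 averaged 0.43 ± 0.34 (SD, n = 3 couples, limma adjusted p = 0.688). Its second probe gave 0.02, 0.34 and 0.43. Pola2, the accessory subunit of the same enzyme, was at -0.03, -0.06 and 0.04, with a mean of -0.02 ± 0.05, and its second probe averaged 0.05. The brightest probe of Pola2 was itself dim, at 7.15 to 7.32 in the 6 samples. Its mean ratio was -0.003 with the ratio made by the scanner software. Pole, the catalytic subunit of the leading-strand polymerase, averaged 0.28 ± 0.24, Pold1, that of the lagging-strand polymerase, -0.01 ± 0.30, and Prim1, the catalytic subunit of primase, 0.23 ± 0.54. Prim1 had ratios of -0.18, 0.02 and 0.84.

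Pcna, the sliding clamp that holds polymerases on DNA (probe at chr2:132075420-132075557, mm9), was at 12.35, 12.37 and 12.65 in TMX_1, TMX_2 and TMX_3, against 12.30, 12.48 and 11.96 in OIL_1, OIL_2 and OIL_3. TMX_3 was highest and OIL_3 lowest, and the other 4 samples lay between 12.30 and 12.48. Its ratios of 0.05, -0.11 and 0.70 averaged 0.21 ± 0.43 (SD, n = 3 couples, limma adjusted p = 0.796). Rfc3, a small subunit of the clamp loader (probe at chr5:152445594-152445653, mm9), was nearly level across samples, at 10.27, 10.25 and 10.14 in TMX_1, TMX_2 and TMX_3, against 10.16, 10.13 and 10.06 in OIL_1, OIL_2 and OIL_3. Its ratios of 0.11, 0.12 and 0.08 averaged 0.10 ± 0.02, the smallest spread over couples among the tested members (limma adjusted p = 0.777). Rfc4, also of the loader, had -0.06, -0.25 and 0.40 and averaged 0.03 ± 0.34, and its second probe gave -0.02, -0.26 and 0.37. Rfc5 averaged 0.12 ± 0.28 by its brightest probe, while its dimmest probe averaged -0.12, so its direction depended on the probe. Rpa2, a subunit of the protein that coats single-stranded DNA, averaged 0.09 ± 0.05.

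For the joining of lagging-strand fragments, Fen1, the flap endonuclease (probe at chr19:10273675-10273734, mm9), was at 11.59, 11.46 and 11.67 in TMX_1, TMX_2 and TMX_3, against 11.39, 11.45 and 11.46 in OIL_1, OIL_2 and OIL_3. The groups touched without overlapping, and OIL_3 was not low. The mean ratio was 0.14 ± 0.11 (SD, n = 3 couples, limma adjusted p = 0.737). Lig1, the ligase that seals the nick, averaged 0.04 ± 0.19, with 0.26 in couple 3.

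The enzymes that supply nucleotides included the gene with the largest mean ratio of all members. All 5 were higher in TMX_3 than in OIL_3 in the array-error fit, against 23.2% of all genes. In the same fit, 3 of 5 (Rrm2, Tyms and Tk1) were higher in TMX_2 than in OIL_2, against 24.9%. Rrm2, the small subunit of ribonucleotide reductase, whose level follows S phase (probe at chr12:25398824-25398883, mm9), was at 10.43, 11.13 and 10.65 in TMX_1, TMX_2 and TMX_3, against 10.48, 10.56 and 9.27 in OIL_1, OIL_2 and OIL_3. TMX_2 was the highest and OIL_3 by far the lowest, and TMX_1 lay below OIL_1 and OIL_2. Its ratios of -0.06, 0.56 and 1.38 averaged 0.63 ± 0.72 (SD, n = 3 couples), a 1.55-fold mean difference that did not pass the limma test (adjusted p = 0.691). Rrm2 had the largest F statistic for a difference between couples of all members (392, against 339 for Uhrf1), and couple 3 exceeded couple 1 by 1.44 ± 0.05 (SE, limma adjusted p = 3.1e-05 in the array-error fit). Rrm1, the large subunit, was at -0.35, 0.09 and 0.52 and averaged 0.09 ± 0.43. Tyms, which makes thymidylate, averaged 0.32 ± 0.37, and Tk1, which salvages thymidine, 0.23 ± 0.33. The 3 probes of Tyms that were well above background gave couple 3 ratios of 0.65, 0.57 and 0.51, and the 3 such probes of Tk1 gave 0.55, 0.65 and 0.45. Dut, which breaks down dUTP (probe at chr2:125083359-125083418, mm9), differed from these in couple 1. It was at 10.03, 9.78 and 9.89 in TMX_1, TMX_2 and TMX_3, against 9.62, 9.77 and 9.17 in OIL_1, OIL_2 and OIL_3, so the groups met at TMX_2 and OIL_2 without overlapping. Its ratios were 0.41, 0.02 and 0.73 and averaged 0.38 ± 0.36 (limma adjusted p = 0.688). Its second, dimmer probe gave 0.11, -0.02 and 0.10.

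Chromatin factors that travel with the fork followed different patterns. Uhrf1, which reads hemimethylated DNA and brings in the maintenance methyltransferase Dnmt1 (probe at chr17:56462770-56462829, mm9), was at 10.53, 10.48 and 11.00 in TMX_1, TMX_2 and TMX_3, against 10.68, 10.41 and 9.60 in OIL_1, OIL_2 and OIL_3. TMX_3 was the highest and OIL_3 the lowest, and the other 4 samples lay between 10.41 and 10.68. Its ratios of -0.15, 0.06 and 1.39 averaged 0.44 ± 0.83 (SD, n = 3 couples, limma adjusted p = 0.780). Chaf1b, a subunit of the CAF-1 histone chaperone (probe at chr16:93906219-93906278, mm9), was at 11.09, 10.70 and 11.06 in TMX_1, TMX_2 and TMX_3, against 10.46, 10.69 and 10.56 in OIL_1, OIL_2 and OIL_3. Here OIL_1 was lowest, and TMX_2 lay just above OIL_2. Its ratios of 0.63, 0.01 and 0.50 averaged 0.38 ± 0.32 (SD, n = 3 couples, limma adjusted p = 0.688). Chaf1a, the large subunit of the same chaperone, was at 0.10, 0.11 and 0.68 and averaged 0.30 ± 0.33.

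E2f1, the factor that drives many of these genes (probe at chr2:154385798-154385857, mm9), was at 8.44, 8.41 and 8.70 in TMX_1, TMX_2 and TMX_3, against 8.39, 8.35 and 7.91 in OIL_1, OIL_2 and OIL_3. The groups did not overlap, but TMX_2 and OIL_1 were close, and OIL_3 and TMX_3 stood apart from the other 4. Its ratios of 0.05, 0.06 and 0.79 averaged 0.30 ± 0.43 (SD, n = 3 couples, limma adjusted p = 0.735). Ccne1, a cyclin that activates Cdk2 at the start of S phase, was at -0.03, 0.06 and 0.35 and averaged 0.13 ± 0.20. Ccne2, not well above background in any reading, had a measured ratio of 0.01 ± 0.07.

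Promoters of the replication genes were read from RefSeq (GRCm38.p6), as 250 bases before to 50 bases after each transcription start, which gave 38 promoters of 33 of the 39 genes. They were searched on both strands for 4 E2F sites (TTTGGCGC, TTTCCCGC, TTTCGCGC and TTTGCCGC), which may overlap, for the CCAAT box (CCAAT) that NF-Y binds, and for the CHR element (TTTGAA) of late cell cycle genes. An E2F site stood in 34.2% of the members' promoters, against 2.26% of all 32851 promoters. A CCAAT box stood in 55.3%, against 37.4%, and a CHR element in 10.5%, against 17.9%. The promoters differed in base composition too: G and C made up a median of 60.7% of the members' promoters, against 52.7% of all. Sequences are given for the members with the largest F statistics for a difference between couples, Uhrf1 with an E2F match (plus strand, chr17:56304063-56304362, 1 of its 2 promoters) and Rrm2 without one (plus strand, chr12:24708004-24708303), and Orc6 (plus strand, chr8:85299382-85299681), added after its values were seen because all its TMX samples were below all its OIL samples. Capitals mark E2F matches and CCAAT boxes on either strand.
Uhrf1: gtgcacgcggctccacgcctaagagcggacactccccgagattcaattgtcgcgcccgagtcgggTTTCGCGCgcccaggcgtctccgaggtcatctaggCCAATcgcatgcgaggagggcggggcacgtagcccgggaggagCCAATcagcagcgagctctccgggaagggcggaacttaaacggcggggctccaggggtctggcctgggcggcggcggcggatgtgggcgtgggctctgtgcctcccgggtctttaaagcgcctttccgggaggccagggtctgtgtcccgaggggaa
Rrm2: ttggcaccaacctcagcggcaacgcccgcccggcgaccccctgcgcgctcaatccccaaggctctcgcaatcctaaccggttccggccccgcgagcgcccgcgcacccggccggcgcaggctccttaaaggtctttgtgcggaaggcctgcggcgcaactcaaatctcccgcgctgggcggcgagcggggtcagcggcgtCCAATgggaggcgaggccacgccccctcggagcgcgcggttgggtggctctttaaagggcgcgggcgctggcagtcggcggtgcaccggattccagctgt
Orc6: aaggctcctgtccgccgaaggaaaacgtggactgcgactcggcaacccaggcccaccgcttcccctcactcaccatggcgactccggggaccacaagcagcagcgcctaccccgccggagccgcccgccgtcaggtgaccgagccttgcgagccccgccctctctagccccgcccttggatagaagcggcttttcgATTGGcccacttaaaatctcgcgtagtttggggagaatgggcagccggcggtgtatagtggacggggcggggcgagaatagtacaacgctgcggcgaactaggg
The Uhrf1 window holds 1 E2F match, TTTCGCGC, and 2 CCAAT boxes. The Rrm2 and Orc6 windows hold 0 E2F matches and 1 CCAAT box each, that of Orc6 on the opposite strand (ATTGG). OIL_3 was the lowest sample for 12 of 13 members with an E2F match and for 15 of 20 without one, and the couple 3 ratio had a median of 0.45 with a match and 0.53 without. A match is a string of letters and does not show that a factor binds.

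Other genes of DNA replication, 57 in all and all tested, had a mean ratio above 0 in 44 of 57, against 48.8% of all genes, and medians of -0.06, 0.08 and 0.26 in couples 1, 2 and 3. By limma, 0 passed at an adjusted p under 0.05, and at an unadjusted p under 0.05, 4 were higher in TMX, against 3% of all genes, and 0 were lower, against 4.01%. Their difference from the 39 genes was not tested. The highest mean ratio was that of Chtf18, of an alternative clamp loader, at 0.44 ± 0.44. The lowest were those of Dbf4, the activator of the Cdc7 kinase, at -0.33 ± 0.61, and of Pold3, a subunit of polymerase delta, at -0.26 ± 0.20.

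Genes of mitosis and the spindle, 30 in all, were lower still in OIL_3 and also separated couple 1. Where OIL_3 was the lowest sample for 31 of 39 replication genes, it was so for 29 of 30 mitosis genes. The share over all genes tested was 18.2%. In couple 3, all 30 mitosis ratios were above 0, with a median of 0.99, against 10003 of 20475 genes tested. In couple 1, 16 of 39 replication genes were above 0, with a median of -0.03, against 0 of 30 mitosis genes, with a median of -0.47. Over all genes tested, 9934 of 20475 were above 0 in couple 1. OIL_1 was the highest of the 6 samples for 4 of 39 replication genes and for 19 of 30 mitosis genes, against 15.7% of all genes tested. This difference between the gene groups was not tested. By limma over couples, 0 of 30 passed at an adjusted p under 0.05, 0 at an unadjusted p under 0.05. The highest mean ratios were 0.51 ± 0.92 for Top2a, which untangles chromosomes, and 0.42 ± 0.62 for Ncapg, a condensin subunit. The lowest were -0.30 ± 0.58 for Prc1, a bundler of the spindle midzone, and -0.10 ± 0.72 for Cenpa, the centromeric histone. In their promoters (27 of 26 genes), an E2F site stood in 11.1% and a CHR element in 74.1%.

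**Figure D3:**
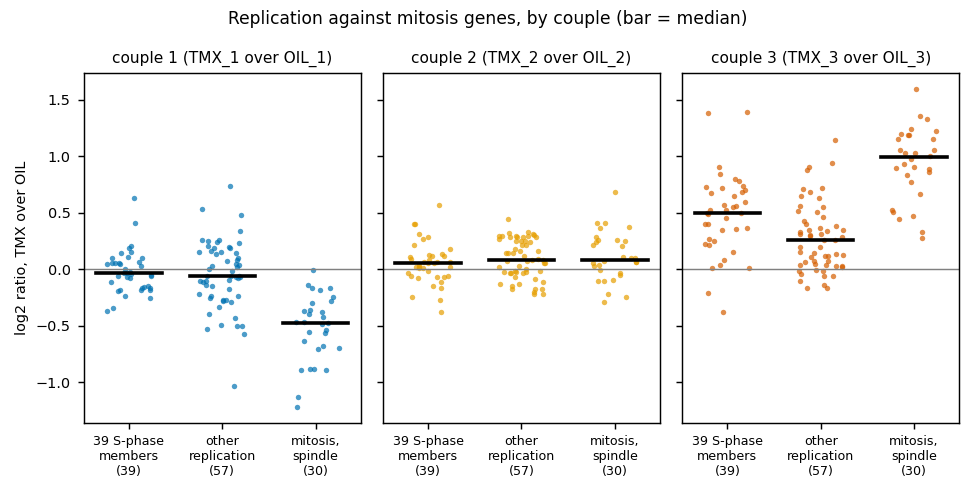
Log2 ratios of TMX over OIL (vertical axis) in couples 1, 2 and 3 (panels) for the 39 replication and S-phase genes, 57 other replication genes and 30 mitosis and spindle genes, with 1 point per gene and a bar at the median. Replication genes lie around 0 in couple 1 (median -0.03) where all mitosis genes lie below 0, and both are above 0 in couple 3 with medians of 0.50 and 0.99.

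Upstream regulators did not share a direction. Among 14 inhibitors and pocket proteins, 13 were tested and 0 passed at a limma adjusted p under 0.05. At an unadjusted limma p under 0.05, 1 was lower in TMX (Cdkn1c), against 4.01% of all genes, and 0 were higher, against 3%. Cdkn1c, the inhibitor p57, had the lowest mean ratio at -0.63 ± 0.19, with all 3 couples below 0, and Cdkn2a followed at -0.58 ± 0.99. The highest were Cdkn1a, the p53-induced inhibitor p21, at 0.50 ± 0.48, with 1.05, 0.18 and 0.26 in the couples, and Rb1, the retinoblastoma protein, at 0.20 ± 0.20. All 7 G1 cyclins and kinases were tested, and 0 passed at a limma adjusted p under 0.05. At an unadjusted limma p under 0.05, 1 was higher (Mycn), against 3% of all genes, and 0 were lower, against 4.01%. Mycn, a Myc family factor, was highest at 1.19 ± 0.57 (limma adjusted p = 0.688), with 1.71, 0.57 and 1.28 in the couples. Cdk4 was next at 0.04 ± 0.20. Myc, a relative of Mycn, was lowest at -0.39 ± 0.48, followed by Ccnd2, a D-type cyclin, at -0.18 ± 0.27.

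Erythroid and endothelial markers also differed in OIL_3: the 4 tested erythroid ones were highest there, and the endothelial ones were lowest in sum but not in every gene. Hba-a1, an alpha globin, was at 13.22, 14.58 and 13.57 in TMX_1, TMX_2 and TMX_3, against 12.98, 13.61 and 15.18 in OIL_1, OIL_2 and OIL_3. Its mean ratio was -0.13 ± 1.33, and among tested erythroid genes the means ran from -0.57 ± 1.59 for Ahsp to -0.08 ± 0.93 for Alas2. Hbb-b1, Ahsp and Alas2 were likewise highest in OIL_3, and these 4 of 8 erythroid markers passed the filter. The summed intensity of the 8 was 10500, 26500 and 13100 in TMX_1, TMX_2 and TMX_3, against 9180, 13600 and 39700 in OIL_1, OIL_2 and OIL_3. Epb42 and Rhag were well above background in 0 of 12 readings. Over the 39 replication genes, the median level relative to each gene's mean was 0.01, 0.06 and 0.12 in TMX_1, TMX_2 and TMX_3. It was 0.04, 0.05 and -0.40 in OIL_1, OIL_2 and OIL_3. The part of blood content in the result was not tested.

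Macrophage markers did not follow the replication genes. Their median ratio was -0.96, 0.42 and -0.52 in couples 1, 2 and 3, and their summed intensity was 69000, 261000 and 111000 in TMX_1, TMX_2 and TMX_3, against 197000, 115000 and 207000 in OIL_1, OIL_2 and OIL_3. Chil3, the brightest, ranged from 15.04 in TMX_1 to 17.32 in TMX_2, and mean ratios ran from -0.998 ± 2.70 for Marco, a scavenger receptor, to 0.02 ± 0.81 for Siglecf. Alveolar type 2 markers were lower in all 3 TMX samples in sum, at 595000, 587000 and 590000, against 709000, 733000 and 715000 in OIL_1, OIL_2 and OIL_3. OIL_3 was not apart from the other OIL samples there. Mean ratios ran from -0.62 ± 0.08 for Sftpb, a surfactant protein, to 0.11 ± 0.40 for Etv5, with -0.18 ± 0.16 for Sftpc. Like the replication genes, all 7 endothelial markers had a ratio above 0 in couple 3 (median 0.32), against 10003 of 20475 genes tested. Their summed intensity was lowest in OIL_3, at 6130, against 6980 to 7990 in the other 5 samples. Kdr, however, was lowest in OIL_1, and Tek and Emcn were lowest in TMX_1. Mean ratios ran from 0.01 ± 0.20 for Pecam1 to 0.32 ± 0.52 for Cldn5, a tight junction protein, with 0.05 ± 0.30 for Emcn, the brightest. T and NK, B and plasma, neutrophil and fibroblast lists had median ratios in couple 3 of -0.01, 0.14, -0.07 and -0.22, genes that failed the filter included. Over tested genes only, the medians were 0.02, 0.17, -0.01 and -0.22. The brightest genes of these lists, Cd4, Cd79b, S100a9 and Col1a2, had mean ratios of 0.02 ± 0.04, -0.01 ± 0.32, 0.62 ± 0.66 and -0.32 ± 0.24. The extremes among those tested were Cd4 and Nkg7 (0.22 ± 0.21), Cd22 (-0.07 ± 0.18) and Jchain (0.23 ± 0.95), Ltf (-0.24 ± 0.85) and S100a9, and Col1a2 and Dcn (0.38 ± 1.16). Whether cell content had a part in the low replication level of OIL_3 was not tested.

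**Figure D4:**
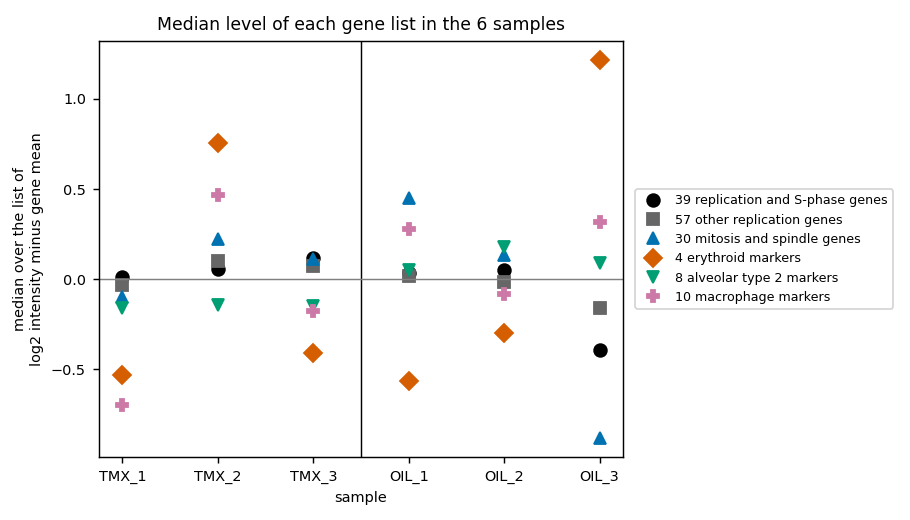
Median over each gene list of log2 intensity minus the gene's mean (vertical axis) in TMX_1 to TMX_3 (left) and OIL_1 to OIL_3 (right). In OIL_3 the replication genes (-0.40) and the mitosis genes (-0.88) are at their lowest while the 4 erythroid markers (1.22) are at their highest.

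Sex-linked transcripts differed between samples. Eif2s3y, encoded on the Y chromosome, was at 9.72, 6.20 and 10.7 in TMX_1, TMX_2 and TMX_3, against 6.01, 6.06 and 10.07 in OIL_1, OIL_2 and OIL_3. Xist, which silences the second X chromosome, was at 6.61, 9.09 and 6.08 in TMX_1, TMX_2 and TMX_3, against 8.74, 8.99 and 5.98 in OIL_1, OIL_2 and OIL_3. Ddx3y and Uty, also Y-linked, were higher in TMX_1, TMX_3 and OIL_3 than in the other samples, as Eif2s3y was. Ddx3y was at 7.1, 6.0 and 7.6 in TMX_1, TMX_2 and TMX_3, against 6.0, 6.0 and 7.3 in OIL_1, OIL_2 and OIL_3. Uty was at 7.3, 6.0 and 8.4, against 6.1, 6.1 and 7.6. The probe of Kdm5d, also a Y-linked gene, did not follow Eif2s3y: it was at 7.76, 7.63 and 7.85 in TMX_1, TMX_2 and TMX_3, against 7.84, 7.61 and 7.96 in OIL_1, OIL_2 and OIL_3. In Eif2s3y and Xist, TMX_3 and OIL_3 were alike, as were TMX_2 and OIL_2, while TMX_1 and OIL_1 were not. Among the OIL samples, OIL_3 alone had high Eif2s3y and low Xist, so this trait and its low replication level cannot be told apart within that group. Of the 39 genes, 3, 1 and 2 were lowest in TMX_1, TMX_2 and TMX_3, and 2, 0 and 31 in OIL_1, OIL_2 and OIL_3. Over all genes tested, the shares in the same order were 23%, 16%, 14.6%, 12.8%, 15.4% and 18.2%. The part of the sex-linked trait in these levels was not tested.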

How the data were processed

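Each deposited scanner file holds spot intensity per channel (mean foreground, median local background) before any normalization, per the file headers. The same files carry a log10 ratio, Cy5 over Cy3, made by the scanner software from background-corrected and dye-normalized signals, per the file headers. Agilent Feature Extraction was the software (version 12.0.3.1 in the submitters' processing notes). A deposited series table gives log2 ratios in the same Cy5 over Cy3 direction. Against each array's own software ratio, put on the log2 scale, its slopes were 0.999 to 1.00 over at least 56603 probes, so scale and direction are known. Its column medians were 0.14, -0.14 and -0.06 (couples 1, 2 and 3) where TMX was in Cy5, and 0.13, -0.15 and -0.01 where OIL was, with no centring beyond the software's.

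In limma 3.58.1 (R 4.3.3), background was corrected by normexp (offset 50), and loess ran within arrays with control spots at weight 0. Outlier-flagged spots were left out (89 to 132 per array), and 0 spots were saturated. A total of 2 genes were dropped for a missing spot. Ratios were turned to TMX over OIL, the 2 arrays of a couple were averaged, and the 3 couple means were tested against 0, two-sided, with lmFit, eBayes and Benjamini-Hochberg adjustment over all genes tested. Errors are SDs over 3 couples unless marked SE. Precision is limited by how few couples there are. The median limma SE was 0.10 over all genes tested, and among the members it reached 0.28 for Rrm2 and 0.32 for Uhrf1. The offset pulls ratios of dim probes toward 0. Scripts were tested on simulated data. Couples are pairs by design, since TMX and OIL samples of the same number shared arrays, and the couple mean already holds the pairing.

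Members, lists and tests were chosen with earlier results of these data known. Each member was named with its mean ratio and SD. In each role, levels in all 6 samples were given for the genes with the largest mean ratio in size and the smallest limma p. Gins3 was added after its values were seen. In other gene lists, the 2 highest and 2 lowest mean ratios were named, and of marker lists the brightest and most extreme. Some genes these rules pick are not reported here. Probe positions are on mm9, as in the files, without exon or UTR annotation, which was not used here. Alternatives covered background correction, offset, normalization, source of the ratio, filter, probe choice, dye term, pairing and leaving out each couple.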

Additional observations from a re-analysis of the deposited data

How the results depend on the processing

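The count of members passing by limma was 0 under each setting for which it was computed. It says nothing about stability, since over all genes 0 were called with each couple left out in turn and under every background, offset, normalization, ratio source, filter and probe setting, 1 with 3 TMX against 3 OIL samples (no replicate block), and 56 with the replicate block. The replicate block left the median member ratio at 0.187. The median of couple 3 stayed between 0.426 and 0.594 over the settings that recompute it, and 30 to 32 members differed between couples, or 26 without the dye term. The shares of all genes that differed under these other settings are not reported here. OIL_3 was lowest for 31 members with an offset of 16 or no background subtraction and for 32 without Aquantile, settings added after seeing the data.

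Counts in couples 1 and 2 were less stable. The shares of all genes under these settings are not reported here, so whether members moved more than other genes is not known. With median centring in place of loess, 7 members were higher and 6 lower in couple 1, and 14 higher and 2 lower in couple 2. With the scanner software ratio, or the deposited table, 2 were higher and 7 lower in couple 1. Without the dye term, 2 were higher and 4 lower in couple 1, 4 higher and 2 lower in couple 2, and 1 lower in couple 3. Members above 0 in both remaining couples numbered 25 without couple 1, against 24.8% of all genes. They numbered 11 without couple 3, against 27.5%, and 15 without couple 2, where the share of all genes is not reported here. A count over 2 couples is not comparable with one over 3. The median member ratio was 0.012 to 0.295, lowest without couple 3.

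Directions of single genes turned mostly with couple 3: 14 of 38 mean ratios changed sign without it, 2 without couple 1 and 3 without couple 2. Over these 3 settings the mean log2 ratio was -0.319 to 0.16 for Cdt1, -0.183 to 0.086 for Pold1, -0.046 to 0.003 for Pola2, -0.011 to 0.365 for Mcm4, -0.112 to 0.375 for Mcm5, -0.068 to 0.134 for Orc1, -0.063 to 0.463 for Mcm10. It was -0.052 to 0.089 for Cdc45, -0.054 to 0.276 for Gins2, -0.126 to 0.005 for Gins3, -0.082 to 0.431 for Prim1, -0.031 to 0.375 for Pcna, -0.157 to 0.168 for Rfc4. It was -0.005 to 0.269 for Rfc5, -0.067 to 0.1 for Lig1, -0.128 to 0.305 for Rrm1 and -0.042 to 0.728 for Uhrf1. With median centring, Cdt1 was at 0.017, Gins3 at 0.012, Gins4 at 0.018 and Pold1 at 0.017. Pold1 was at 0.003 with the scanner ratio and with the deposited table, and Pola2 at 0.039 with the mean of all probes. The cause of these turns was not tested.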
